A study of Saccharomyces cerevisiae with 41 samples.

Results

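The small nucleolar RNAs (snoRNAs) of the box C/D class that lie outside the polycistronic snR72 to snR78 cluster were measured in budding yeast, Saccharomyces cerevisiae. They were chosen by name: every feature whose name starts with snR in the 3 deposited count tables was taken, and the spliceosomal RNAs, 29 box H/ACA snoRNAs and the 7 snoRNAs of the cluster were set aside. This left 40 of 11587 features. The series set a control strain beside strains with the alleles csl4-ph, dis3-1, enp1-1 and srm1-ts or without RRP6, all given as BY4741 vegetative cells in the labels, all grown at 25 °C and moved to 37 °C for 90 min. CSL4 encodes a structural subunit of the RNA exosome, DIS3 its catalytic subunit and RRP6 a 3′ exonuclease of its nuclear form. ENP1 encodes an assembly factor of the small ribosomal subunit, and SRM1 the exchange factor of the Ran GTPase, which drives nuclear transport. Oligo d(T)-selected RNA came from control (3 libraries), csl4-ph (3), enp1-1 (2) and srm1-ts (2). RNA depleted of ribosomal RNA came from csl4-ph (3 libraries) and from 2 libraries each of control, enp1-1, srm1-ts, dis3-1 and rrp6 deletion. Tags of 3′ ends came from control, csl4-ph and enp1-1, each with an empty vector or a Pab1GFP vector, with 3 libraries a group. Pab1 binds poly(A) tails in the cytoplasm, and the promoter of its vector is not given in the sources used here.

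Box C/D snoRNAs guide 2′-O-methylation of ribosomal RNA (rRNA) by base pairing, and a few of them take part in cleaving the rRNA precursor or guide its acetylation. Each is bound by Nop1, Nop56, Nop58 and Snu13 at its C and D boxes, which protects it from decay. In budding yeast most are transcribed singly by RNA polymerase II and terminated by the Nrd1-Nab3-Sen1 complex, after which the nuclear exosome trims the 3′ end; transcripts that run on past that terminator are the Nrd1-unterminated transcripts (NUTs).

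The sequences below are those of the members on which most results turn, read by their listed positions from the R64 (sacCer3) genome, 5′ to 3′ on the strand of the gene. Capitals mark box C as the letters TGATGA and box D as the letters CTGA nearest to the 3′ end. U14 (snR128) spans chrX:139566-139691 on the minus strand, and snR190 lies beside it at chrX:139761-139950. The acetylation guides snR4 and snR45 lie on the plus strand at chrV:424698-424883 and chrXVI:821732-821903. The methylation guide snR13 lies on the plus strand at chrIV:1402919-1403042. snR52, which RNA polymerase III transcribes, lies at chrV:431129-431220 and the methylation guide snR57 at chrXII:794937-795024, both on the minus strand.
snR128: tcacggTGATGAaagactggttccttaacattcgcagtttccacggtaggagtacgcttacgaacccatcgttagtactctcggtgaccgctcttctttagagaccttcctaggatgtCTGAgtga
snR190: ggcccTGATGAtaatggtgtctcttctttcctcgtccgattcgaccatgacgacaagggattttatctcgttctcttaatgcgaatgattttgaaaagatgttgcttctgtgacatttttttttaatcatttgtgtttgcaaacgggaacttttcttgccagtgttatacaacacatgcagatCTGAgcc
snR4: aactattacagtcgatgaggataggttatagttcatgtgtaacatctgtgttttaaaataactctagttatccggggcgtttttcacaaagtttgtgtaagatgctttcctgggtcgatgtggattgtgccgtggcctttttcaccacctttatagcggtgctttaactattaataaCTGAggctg
snR45: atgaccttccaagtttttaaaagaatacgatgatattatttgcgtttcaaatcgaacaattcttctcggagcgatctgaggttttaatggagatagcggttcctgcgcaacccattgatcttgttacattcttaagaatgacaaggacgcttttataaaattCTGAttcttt
snR13: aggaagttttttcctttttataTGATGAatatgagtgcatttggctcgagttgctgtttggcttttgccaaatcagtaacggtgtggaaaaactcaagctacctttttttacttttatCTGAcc
snR52: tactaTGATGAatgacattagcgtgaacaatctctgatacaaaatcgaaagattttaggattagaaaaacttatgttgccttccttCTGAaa
snR57: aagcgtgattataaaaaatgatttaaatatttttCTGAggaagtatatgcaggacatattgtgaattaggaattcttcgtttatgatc
In snR128, snR190 and snR52 both runs of capitals stand close to the ends, and in snR13 the first one stands farther in, with TGATGA starting at base 23. snR4, snR45 and snR57 hold no TGATGA, and in snR57 the last CTGA ends 50 bases from the 3′ end.

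TGATGA followed by CTGA on the gene's strand was present in 34 of the 40 members (85.0%), in 3 of the 29 H/ACA snoRNAs (10.3%) and in 0.838% of 241410 genome windows of 100 bases on both strands. Both boxes lay within 15 bases of the ends in 31 members (77.5%), in 0 of the H/ACA snoRNAs and in 0.0493% of the windows. The members were 78 to 490 bases long with a median of 98.5, and 20 were shorter than the median. Of the 40, 24 stood alone, 10 lay within 300 bases of another member and 6 lay in introns. The introns were those of EFB1 (snR18), ASC1 (snR24), TEF4 (snR38), RPL7A (snR39), IMD4 (snR54) and RPL7B (snR59). The pair that encodes U3, snR17a and snR17b, shared 81.1% of aligned bases, so their separate values are uncertain.

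Deposited library totals were 15589670 to 33251600 counts in oligo d(T) RNA, 12795066 to 32142495 in ribo-depleted RNA and 1458382 to 3027707 in 3′ tags. The members took 0.414 to 0.747% of the ribo-depleted counts. Among empty-vector tag libraries, the gene TAR1 took 2034019 of 3027707 counts in control replicate 1 and 784973 of 1539963 in enp1-1 replicate 3. Scaling factors of these groups were 0.591 to 0.902 in control, 1.05 to 1.16 in csl4-ph and 1.04 to 1.31 in enp1-1. Levels are CPM, counts per 1000000 counts of a scaled library, given with the standard deviation (SD), and 3 counts in 1 library, the floor used for groups at 0, stand for 0.0866 to 0.313 CPM in ribo-depleted RNA; floors and intervals cover counting error only. A feature is called higher or lower where edgeR's quasi-likelihood test gave an adjusted p under 0.05, with the Benjamini-Hochberg adjustment made over the whole table. The labels do not say that libraries came from separate cultures, so p-values measure only the spread between these libraries. RRP6 was at 39.04 ± 1.27 CPM in the rrp6 deletion and 185 ± 7.06 CPM in control (n = 2 each), and the files do not say which bases were deleted. In ribo-depleted RNA the alpha-cell pheromone gene MF(ALPHA)1 was at 680 ± 17.1 CPM in control (n = 2) and 225 ± 2.60 in csl4-ph (n = 3), and at 0.357 to 5.36 in the other 4 strains. LYS2 was at 0.541 ± 0.322 CPM in control and 0 in csl4-ph, and at 395 to 682 in the other 4. Other markers grouped the strains otherwise. The a-cell receptor gene STE2 was at 7.37 CPM in control, 14.4 in csl4-ph and 8.71 in rrp6 deletion, and at 62.7 in srm1-ts, 352 in dis3-1 and 426 in enp1-1. URA3 was at 12.9 CPM in control and 9.25 in rrp6 deletion and at 0 in the other 4. MET17 was at 539 CPM in control and 91.2 in csl4-ph, and at 0 to 0.723 in the other 4. BY4741 is an a strain with LYS2 functional and MET17 and URA3 deleted. The levels of MF(ALPHA)1, LYS2 and MET17 in control and csl4-ph go against that label. So do those of URA3 in control and rrp6 deletion, and STE2 in rrp6 deletion lay near its control level. The strain background and the named mutation therefore cannot be told apart in any comparison between these strains. The description of csl4-ph ribo-depleted replicate 1 names polyadenylated RNA, while its title and table say ribo-depleted; it was kept there.

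The number of members that could be tested varied with the selection and with their length. After the filter on low counts, 22 of 40 members were tested in ribo-depleted RNA, 20 in 3′ tags and 15 in oligo d(T) RNA. Members at 0 counts in every library numbered 7, 3 and 12 in the same order. In ribo-depleted RNA 15 of the 20 members at or above the median length were tested, against 7 of the 20 shorter ones. Of the 6 intron-coded members, 1 was tested in ribo-depleted RNA (snR18) and 1 in 3′ tags (snR39). Only 3 members overlap no other listed feature: snR52, snR57 and snR17b. Another 31 overlap a NUT, of which 29 lie inside one, and how the authors' counting divided reads between such features is not given in the sources used here.

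In control ribo-depleted RNA the members spanned a wide range of levels per length. U3 led: snR17a was at 7999 ± 701 CPM per kb and snR17b at 2011 ± 110 (n = 2 each here and below). snR190, known for its part in large-subunit assembly, followed at 1489 ± 40.5 CPM per kb. U14 (snR128), which pairs with the rRNA precursor in small-subunit processing, was at 908 ± 9.92 CPM per kb. Then came snR13 at 881 ± 9.64 and snR4 at 818 ± 41.97 CPM per kb. The large-subunit guide snR63 was at 747 ± 9.97 CPM per kb. snR70 (364 ± 31.7) and snR45 (354 ± 6.90 CPM per kb) overlapped within 1 SD, as did no other neighbours down to this level. Well below them, snR57 at 84.4 ± 0.127 and snR40 at 63.3 ± 4.87 CPM per kb lay apart by more than their SDs. snR47 at 65.4 ± 22.3 CPM per kb overlapped both within 1 SD. U3 alone made up 74.7 to 88.9% of the members' summed CPM over the 13 libraries.

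**Figure D1:**
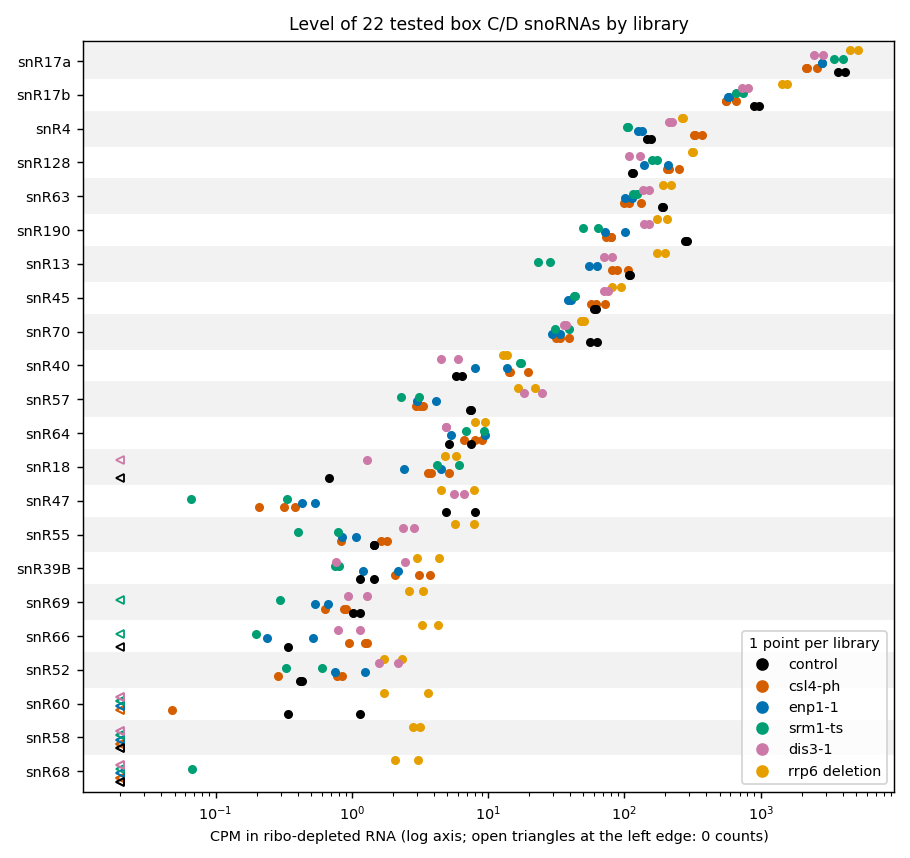
Levels of the 22 tested box C/D snoRNAs in the 13 ribo-depleted libraries, in CPM on a log axis, with 1 point per library coloured by strain and open triangles at the left edge for 0 counts. The rrp6 deletion libraries lie to the right of the control for snR128, snR4, snR13, snR57 and snR52, and snR58 lies above 0 only there, at 2.83 and 3.16 CPM.

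Deletion of RRP6 went with higher levels of most measured members. U14, a small-subunit processing RNA, was at 114 and 115 CPM in the control libraries and at 314 and 319 CPM in the rrp6 deletion libraries. U14 therefore rose without overlap between the groups, by 1.47 on the log2 scale (SE 0.19, adjusted p = 8.28e-05). More of an RNA per cell and less of the other RNA in a library cannot be told apart in such shares. In U3, snR17b was at 965 and 893 CPM in control and 1433 and 1558 CPM in the deletion (log2 change 0.69, SE 0.10). snR17a, the other U3 gene, rose by 0.30 (SE 0.12, adjusted p = 0.0439). The acetylation guides snR4 and snR45 rose by 0.82 (SE 0.07) and 0.53 (SE 0.11) on the log2 scale. Among methylation guides, snR57 was at 7.43 and 7.42 CPM in control and at 16.6 and 22.2 CPM in the deletion, so that both deletion libraries were higher (log2 change 1.39, SE 0.24). snR52 was at 0.427 and 0.418 CPM in control and at 1.73 and 2.34 CPM in the deletion (log2 change 2.25, SE 0.65). Among the large-subunit guides, snR13 rose by 0.77 (SE 0.14) and snR40, which guides on both subunits, by 1.12 (SE 0.27) on the log2 scale.

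Some low members came up from at or near 0 in the rrp6 deletion. The large-subunit guide snR58 had 0 counts in both control libraries and 3.16 and 2.83 CPM in the deletion libraries, at least 10.5-fold higher against 3 counts per control library. snR68, another large-subunit guide, had 0 counts in control and 2.09 and 3.08 CPM in the deletion, at least 9.07-fold higher. snR66 was at 0.342 and 0 CPM in control and 3.28 and 4.25 CPM in the deletion, and was called (log2 change 4.35, SE 1.37). The intron-coded snR18 was at 0.684 and 0 CPM in control and 5.85 and 4.81 CPM in the deletion (log2 change 3.88, SE 1.43), while its host EFB1, a translation elongation factor gene, rose by 0.26 (SE 0.03). The exception was snR190, at 288 and 278 CPM in control and 173 and 206 CPM in the deletion, where it fell by 0.58 on the log2 scale (SE 0.16, adjusted p = 0.011). In all, 15 of the 22 tested members were called higher and 1 lower, where 30.5% of all 10564 features were called higher and 35.6% lower. Calls in either direction made up 66.1% of all features, and the members' median log2 change was 1.25 against −0.01. snR58 and snR68 were at or near 0 in all other strains and passed the low-count filter only through the deletion libraries. snR60, at 0.342 and 1.15 CPM in control and 1.73 and 3.64 CPM in the deletion, also needed the deletion libraries to pass. A rise of these members was therefore close to fixed by the filter, and they count in the 22 and in the median. With libraries scaled on open reading frames (ORFs) alone, the median of all features moved up by 0.23 to 0.44 in the 5 ribo-depleted comparisons with control. The share of all features called higher then went from 30.0 to 39.4% up to 43.3 to 49.1%, and the share called lower from 35.6 to 41.1% down to 23.1 to 28.9%. Without deletion replicate 2, or without control replicate 2, 9 members were called, and the snR52 and snR17a calls were lost; that of snR52 was also lost without control replicate 1. The snR190 call was lost without deletion replicate 1 or control replicate 1, and with ORF scaling.

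**Figure D2:**
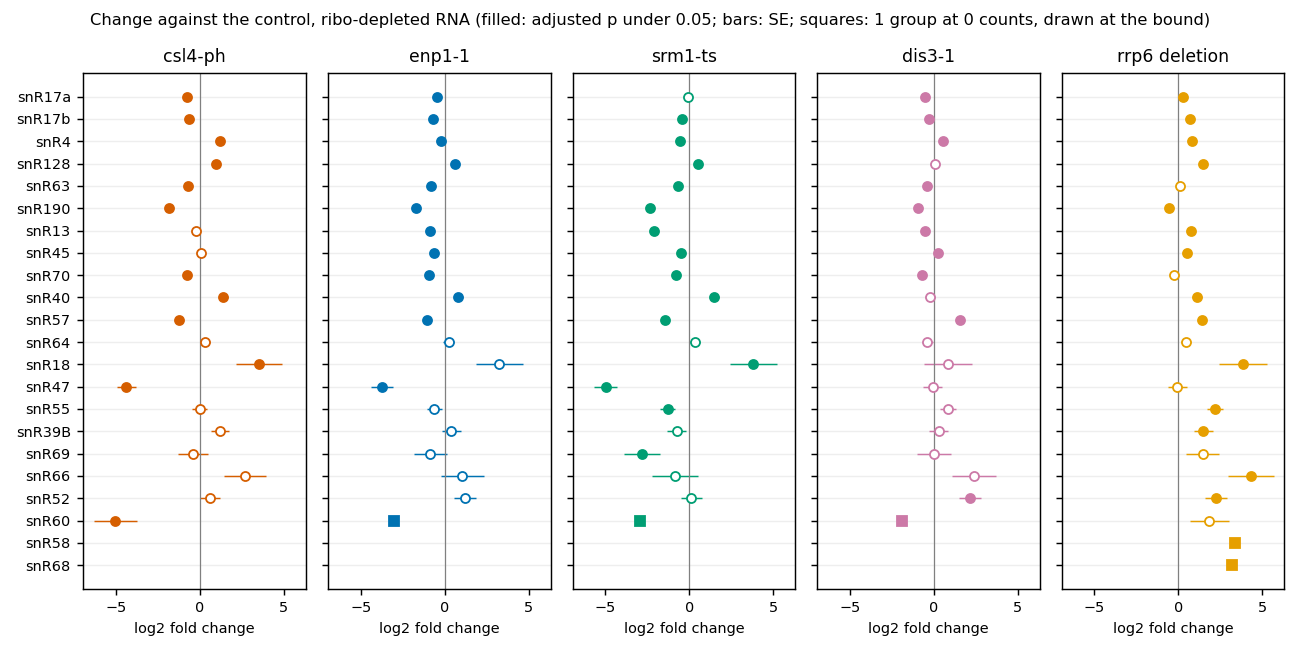
Log2 fold change of each tested member against control in ribo-depleted RNA, 1 panel per strain, with standard errors (SE) as bars and filled symbols for an adjusted p under 0.05; squares have 1 group at 0 counts and stand at the bound. All 5 panels share the same 2 control libraries; snR190 lies left of 0 in every panel and snR57 lies left of 0 in csl4-ph, enp1-1 and srm1-ts and right of 0 in dis3-1 and rrp6 deletion.

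In dis3-1 the members moved in both directions. snR57 was at 18.3 and 24.9 CPM against 7.43 and 7.42 in control, so that both dis3-1 libraries were higher (log2 change 1.54, SE 0.24, adjusted p = 0.000276). snR52 rose from 0.427 and 0.418 to 1.58 and 2.18 CPM (log2 change 2.14, SE 0.65), a call lost without either control library or dis3-1 replicate 2. The acetylation guides snR4 and snR45 rose by 0.52 (SE 0.07) and 0.27 (SE 0.11); the snR45 call was lost whichever library was left out. U14 was at 131 and 107 CPM, on both sides of the control's 114 and 115 (log2 change 0.06, SE 0.20, adjusted p = 0.836). snR190 fell from 288 and 278 to 152 and 140 CPM, by 0.96 on the log2 scale (SE 0.17). U3 also fell, snR17a by 0.55 (SE 0.12) and snR17b by 0.28 (SE 0.10); with ORF scaling snR17b was at 0.14 and snR17a no longer called. DESeq2 also lost the snR17b call, at −0.15. snR13 fell by 0.52 (SE 0.15), or by 0.42 and uncalled without dis3-1 replicate 2, and was uncalled with ORF scaling. Of 22 members 4 were called higher and 7 lower, against 30.0% and 38.8% of all features (68.8% in either direction), with a median of 0 against −0.07. With ORF scaling the split was 5 higher and 2 lower; without dis3-1 replicate 2 it was 5 calls in all, and without control replicate 2 it was 7.

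Set directly against each other, dis3-1 and rrp6 deletion differed for many members, with the snoRNA feature lower in dis3-1 in each of those called. As given above, STE2 and URA3 also differed between these strains, and the background cannot be told apart from the mutations here either. U14 differed by −1.41 on the log2 scale (SE 0.18, adjusted p = 0.000152), snR13 by −1.29 (SE 0.14) and snR40 by −1.34 (SE 0.27). snR17a and snR17b differed by −0.85 (SE 0.12) and −0.96 (SE 0.10). The guides snR58 and snR68 had 0 counts in dis3-1, at least 14.7-fold and 12.7-fold below the deletion. Both passed the low-count filter only through the deletion libraries, so they could not have been tested without being high there. The same holds for snR60, which also had 0 counts in dis3-1. Summed with overlapping noncoding features, the snR58 locus was lower in dis3-1 by 1.16 (log2 difference −1.16, SE 0.13) and the snR68 locus higher by 0.40 (SE 0.05). The loci of U14 with snR190, snR13, snR40 and snR17a were lower in dis3-1 in such sums too, at −0.80, −0.72, −0.79 and −0.84, and the snR47 locus was higher at 0.87 (SE 0.12). In snR57 the strains differed by 0.15 (SE 0.23, adjusted p = 0.657) and in snR52 by −0.12 (SE 0.60, adjusted p = 0.935). Of 22 members 0 were called higher in dis3-1 and 13 lower, where 21.4% and 26.1% of all features were (47.5% in either direction); 16 members had an unadjusted p under 0.05. The calls numbered 7 without dis3-1 replicate 2 or without deletion replicate 2, and 8 without deletion replicate 1.

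In csl4-ph ribo-depleted RNA some members rose while U3 and snR190 fell. snR4, an acetylation guide, was at 373, 327 and 322 CPM against 147 and 158 in control. All 3 csl4-ph libraries were above both control libraries (log2 change 1.17, SE 0.07, adjusted p = 1.72e-07). U14 was at 250, 205 and 212 CPM against 114 and 115, again without overlap (log2 change 0.96, SE 0.18). snR40 rose by 1.40 (SE 0.25). snR190 was at 79.9, 79.3 and 72.9 CPM against 288 and 278, far below both control libraries (log2 change −1.87, SE 0.15, adjusted p = 2.07e-06). snR17a fell by 0.76 (SE 0.11) and snR17b by 0.65 (SE 0.09). snR57, at 2.95, 3.14 and 3.31 CPM, lay below the control's 7.43 and 7.42 (log2 change −1.24, SE 0.21). snR47, a guide on both subunits, was at 0.38, 0.319 and 0.207 CPM against 8.03 and 4.91 in control (log2 change −4.39, SE 0.58), while its locus as a whole rose by 3.02 (SE 0.16). snR45 and snR13 differed from control by 0.06 (SE 0.10) and −0.25 (SE 0.13), neither of them called. Of 22 members 4 were called higher and 8 lower, beside 35.4% and 41.1% of all features (76.5% in either direction), so a smaller share of members was called than of all features. ORF scaling raised the median of all features by 0.44, and then 8 members were called higher and 5 lower.

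In enp1-1 ribo-depleted RNA most members called were lower. snR190 was at 72.1 and 102 CPM against 288 and 278 in control, with no overlap (log2 change −1.71, SE 0.17, adjusted p = 9.81e-06). snR13 fell from 108 and 110 to 62.8 and 54.6 CPM, by 0.90 on the log2 scale (SE 0.15). snR17b fell by 0.68 (SE 0.10), snR17a by 0.47 (SE 0.12) and snR70, a small-subunit guide, by 0.92 (SE 0.13). snR45 fell by 0.62 (SE 0.11) and snR57 by 1.05 (SE 0.24). snR4 was called lower at −0.22 (SE 0.07), a call lost with DESeq2, without enp1-1 replicate 2 or control replicate 2, and turned to 0.08 by ORF scaling. U14 was at 207 and 139 CPM against 114 and 115 and was called higher (log2 change 0.60, SE 0.19). Without enp1-1 replicate 1 the U14 change was 0.29 and that of snR40 was 0.38 in place of 0.83 (SE 0.27), neither called, and both calls were also lost without either control library. Of 22 members 2 were called higher and 11 lower, beside 34.8% and 37.0% of all features (71.8% in either direction), and the median was −0.54 against 0.

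In srm1-ts ribo-depleted RNA 12 members fell and 3 rose. snR13 was at 23.1 and 28.4 CPM against 108 and 110 in control, a fall of 2.08 on the log2 scale (SE 0.16, adjusted p = 1.12e-06). snR190 was at 49.6 and 64.3 CPM against 288 and 278 (log2 change −2.31, SE 0.17). Both RNAs were below every control library. snR47 fell to 0.333 and 0.0657 CPM (log2 change −4.98, SE 0.69), while its locus as a whole rose by 1.01 (SE 0.18). snR57 fell to 3.13 and 2.30 CPM (log2 change −1.45, SE 0.24). snR4 fell by 0.52 (SE 0.07) and snR45 by 0.50 (SE 0.11), the latter not called with ORF scaling. snR40 was at 17.1 and 17.4 CPM against 5.81 and 6.48 in control, above both (log2 change 1.49, SE 0.27). U14 was called higher at 0.54 (SE 0.19), but not when srm1-ts replicate 1 or either control library was left out. Of the U3 genes, snR17a was at −0.07 (SE 0.12, adjusted p = 0.604), and snR17b fell by 0.41 (SE 0.10), or by 0.16 and uncalled without srm1-ts replicate 2, and was uncalled with ORF scaling. Of 22 members 3 were called higher and 12 lower, beside 39.4% and 37.0% of all features (76.4% in either direction). The members' median was −0.60, or −0.71 with members at 0 counts placed at their bound, against 0.04 over all features.

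The noncoding features that overlap members were read in the same libraries. Of the 28 NUTs that overlap members, 25 were called higher and 1 lower in rrp6 deletion, beside 30.5% and 35.6% of all features, and 23 and 2 in dis3-1, beside 30.0% and 38.8%. In csl4-ph 21 and 4 were called, beside 35.4% and 41.1%, and in enp1-1 17 and 6, beside 34.8% and 37.0%. In srm1-ts 11 were called higher, a share near the 39.4% of all features, and 14 lower, beside 37.0%. At the snR45 locus NUT0805 was at 4.87 ± 0.240 CPM in control (n = 2), 735 ± 12.4 in csl4-ph (n = 3), 520 ± 13.1 in dis3-1 and 391 ± 13.1 in rrp6 deletion (n = 2 each). The share of the locus counts placed on snR45 itself was 92.4% in control and 7.97% in csl4-ph, 12.4% in dis3-1 and 18.3% in rrp6 deletion. At the snR47 locus that share was 29.1% in control and 0.167% in csl4-ph, with NUT0903 at 15.7 CPM in control and 181 CPM in csl4-ph. At snR13 the share was 65.3% in control and 26.9% in csl4-ph, and at snR4 it was 61.4% and 29.7%. U14 and snR190 share NUT1162. In control snR190 held 50.1% of that locus and U14 20.2%, and in csl4-ph 9.83% and 28.2%.

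These shares bear on the direction of single members. Summed with their overlapping noncoding features, the U14 and snR190 locus rose in csl4-ph by 0.48 (SE 0.05) and in rrp6 deletion by 1.13 (SE 0.05), where the snR190 feature fell. The snR13 locus rose in dis3-1 by 0.59 (SE 0.07), where the snR13 feature fell. The snR45 locus rose in enp1-1 by 1.43 and in srm1-ts by 1.18 (SE 0.03 each), where the snR45 feature fell. The U14 and snR190 locus fell in enp1-1 by 0.54 and in srm1-ts by 0.70 (SE 0.05 each), where the U14 feature was called higher. At the snR17a locus, by contrast, the sum moved with the feature, at −0.74 in csl4-ph against −0.76 for snR17a alone. How far reads of mature and extended RNA were divided between the features was not tested. The locus sums were chosen after seeing the data and hold RNA outside the snoRNA.

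**Figure D3:**
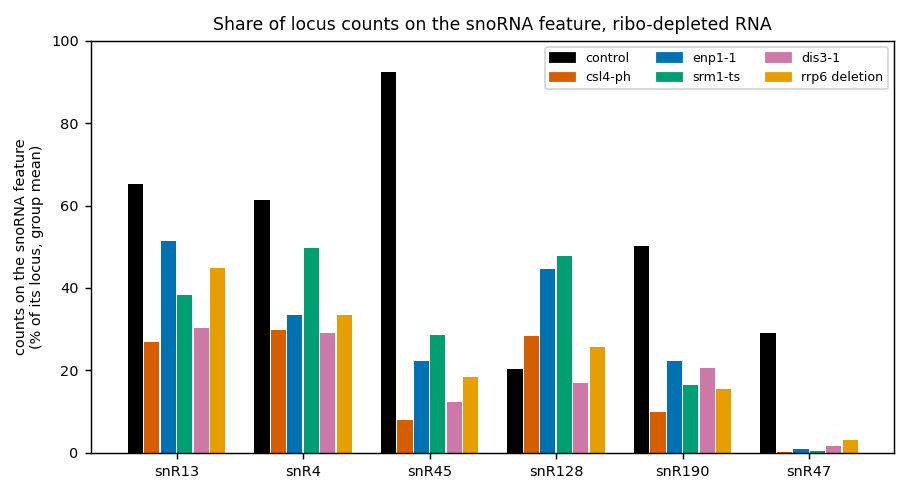
Share of the counts of a locus (the snoRNA and the noncoding features that overlap it) that was placed on the snoRNA, in percent, as group means in ribo-depleted RNA for 6 members and 6 strains. The control bar is the tallest for snR13, snR4, snR45, snR190 and snR47, and not for snR128, at 20.2% in control and 47.9% in srm1-ts.

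Oligo d(T) selection, which keeps polyadenylated RNA, held little of the members in control, and 9 of the 15 tested were called higher in csl4-ph. The summed member level was 65.3 ± 4.80 CPM in control (n = 3), 422 ± 24.8 in csl4-ph (n = 3), 128 ± 1.12 in enp1-1 and 19.2 ± 1.00 in srm1-ts (n = 2 each). snR4 was at 15.2, 13.4 and 16.9 CPM in control and at 214, 233 and 240 CPM in csl4-ph, well above all controls (log2 change 3.92, SE 0.08, adjusted p = 1.94e-09). snR13 was at 1.76, 2.74 and 1.67 CPM in control and 42.3, 47.0 and 50.2 CPM in csl4-ph (log2 change 4.50, SE 0.23). U14 went from 3.81, 2.66 and 3.70 CPM to 56.2, 69.5 and 66.3 CPM (log2 change 4.23, SE 0.16). None of these groups overlapped. snR45 rose by 2.91 (SE 0.21) and snR17b by 1.39 (SE 0.10), while snR17a was at 0.31 (SE 0.13, adjusted p = 0.0518). snR52, with 3 counts in all control libraries, had a ratio of 7.44 with a 95% exact interval of 2.36 to 37.7. snR190 and snR70 had 0 counts in csl4-ph, at least 6.99-fold and 8.26-fold lower than control, although the U14 and snR190 locus as a whole rose by 3.72 (SE 0.04) and the locus of snR51, snR70 and snR41 by 1.19 (SE 0.10). In all, 9 of 15 members were called higher and 2 lower, beside 38.2% and 39.6% of 10464 features (77.8% in either direction). The median was 1.92, or 1.86 with members at 0 counts at their bound, against 0. snR39B, snR64 and snR66 passed the low-count filter only through csl4-ph libraries, so a rise of these members in csl4-ph was close to fixed by it. They count in the 15 and in the median.

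In enp1-1, 7 members rose in oligo d(T) RNA, the methylation guides snR57 and snR52 among them. snR57 was at 1.54, 1.33 and 1.67 CPM in control and 12.9 and 13.6 CPM in enp1-1, above all controls (log2 change 3.13, SE 0.47, adjusted p = 0.000338). snR52 had a ratio of 16.5 over 3 control counts, with a 95% exact interval of 5.46 to 81.5. U14 rose by 1.94 (SE 0.16), snR45 by 2.27 (SE 0.22), snR4 by 1.36 (SE 0.09) and snR17b by 0.59 (SE 0.11). snR13 was at 1.72 and 1.95 CPM, within the control range (log2 change −0.16, SE 0.24, adjusted p = 0.562). Of 15 members 7 were called higher and 0 lower, beside 37.8% and 38.6% of all features (76.4% in either direction), with a median of 0.83 against 0. In the direct test of csl4-ph against enp1-1, snR13 was higher in csl4-ph by 4.66 (SE 0.27), snR4 by 2.56 (SE 0.08) and U14 by 2.30 (SE 0.16). snR57 was lower in csl4-ph than in enp1-1 by 2.25 on the log2 scale (log2 difference −2.25, SE 0.45, adjusted p = 0.00336). In that test 6 members were called higher in csl4-ph and 4 lower, beside 26.6% and 26.7% of all features (53.4% in either direction). The members tested there include snR39B, snR64 and snR66, which passed the low-count filter only through csl4-ph libraries.

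In srm1-ts, 9 members fell in oligo d(T) RNA. snR4 was at 3.82 and 4.38 CPM, below the control's lowest library at 13.4 (log2 change −1.88, SE 0.12, adjusted p = 1.02e-06), though the sum of its locus was at −0.08 (SE 0.03) and not called. snR17a was at 6.33 and 4.45 CPM against 33.3, 27.8 and 30.5 in control (log2 change −2.50, SE 0.16), and its locus fell by 0.83 (SE 0.10). The other U3 gene, snR17b, was at 6.33 and 6.05 CPM against 6.45, 7.06 and 7.57, just below all controls but not called (log2 change −0.18, SE 0.11). snR13 fell by 2.44 (SE 0.29), U14 by 2.20 (SE 0.21), snR57 by 2.35 (SE 0.54) and snR45 by 1.52 (SE 0.24), while the snR45 locus as a whole rose by 2.84 (SE 0.05). The locus of U14 with snR190 fell by 0.13 (SE 0.05) and that of snR13 by 1.53 (SE 0.07). Of 15 members 0 were called higher and 9 lower, beside 39.3% and 37.7% of all features (77.0% in either direction). The median was −1.88, or −1.52 with members at 0 counts at their bound, against 0.01.

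**Figure D4:**
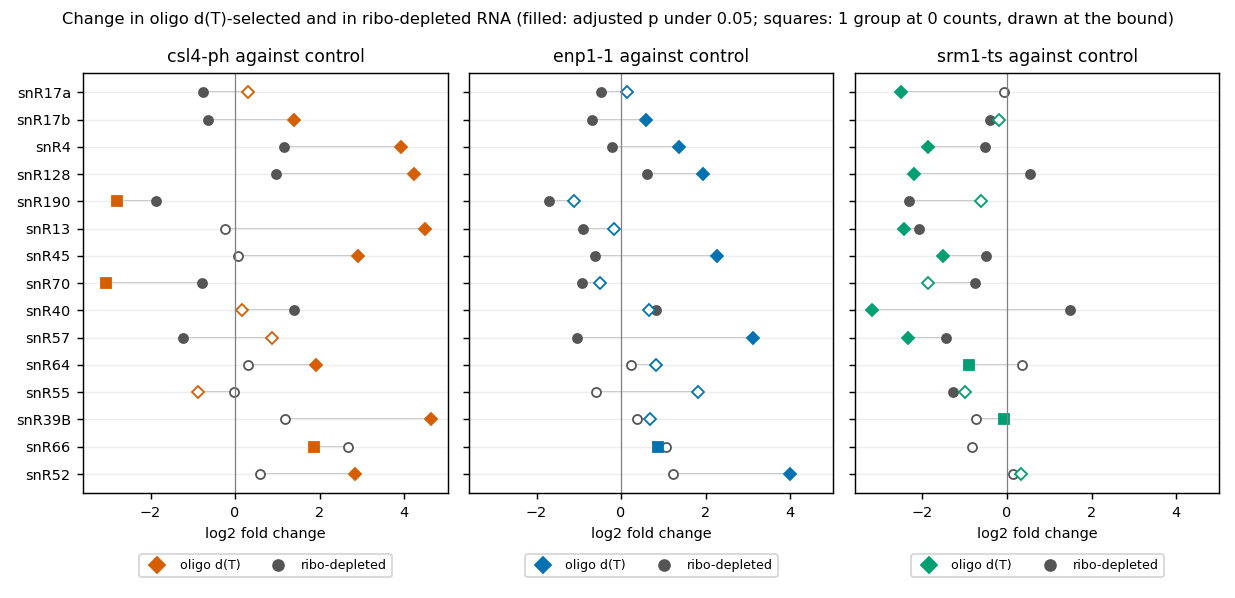
Log2 fold change against control of the 15 members tested in both tables, in oligo d(T)-selected RNA (coloured diamonds) and in ribo-depleted RNA (grey circles), for csl4-ph, enp1-1 and srm1-ts; filled symbols have an adjusted p under 0.05, and squares have 1 group at 0 counts and stand at the bound. snR4, snR13, snR45 and U14 (snR128) lie farther right in oligo d(T) than in ribo-depleted RNA for csl4-ph, and U14 and snR17a lie farther left for srm1-ts.

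Whether the change differed between the selections was tested in 1 fit over both tables. In csl4-ph the oligo d(T) change exceeded the ribo-depleted change for snR13 by 4.73 (SE 0.23, adjusted p = 1.37e-10), for U14 by 3.26 (SE 0.29) and for snR45 by 2.83 (SE 0.19). It also exceeded it for snR4 by 2.74 (SE 0.11), for snR17b by 2.03 (SE 0.15) and for snR57 by 2.11 (SE 0.49). Of 22 members 9 were called higher and 2 lower, beside 27.7% and 27.1% of 10790 features (54.8% in either direction). In enp1-1 the differences were 2.87 for snR45 (SE 0.21), 4.16 for snR57 (SE 0.54), 1.56 for snR4 (SE 0.12) and 1.31 for U14 (SE 0.35). There 9 members were called higher and 0 lower, beside 22.8% and 30.2% (53.0% in either direction). In srm1-ts the oligo d(T) change was below the ribo-depleted one for U14 (difference −2.80, SE 0.55), snR17a (−2.49, SE 0.21), snR4 (−1.42, SE 0.15) and snR45 (−1.08, SE 0.27). In srm1-ts 0 members were called higher and 7 lower, beside 22.5% and 27.7% (50.2% in either direction). With locus sums the srm1-ts differences turned to 0.52 for U14 with snR190, 0.08 for snR4 and 1.61 for snR45.

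The 3′ tags gave a further reading of members with tagged 3′ ends, in strains with the empty vector. snR57 was at 3.36, 3.68 and 3.57 CPM in control, 31.96, 24.9 and 23.5 CPM in csl4-ph and 246, 359 and 225 CPM in enp1-1. The 3 groups were fully apart, and snR57 rose by 2.90 in csl4-ph (SE 0.43) and by 6.27 in enp1-1 (SE 0.40, adjusted p = 1.48e-08). snR52 was at 7.83, 12.9 and 10.2 CPM in control, 34.5, 27.0 and 21.5 CPM in csl4-ph and 83.5, 85.4 and 85.5 CPM in enp1-1. It rose by 1.42 (SE 0.26) and by 3.04 (SE 0.25), again with no overlap between the groups. U14 was at 6.15, 11.04 and 6.13 CPM in control, 79.4, 116 and 85.4 CPM in csl4-ph and 55.7, 58.0 and 63.6 CPM in enp1-1. Both strains were above all controls (log2 changes 3.60, SE 0.27, and 2.93, SE 0.27). snR17b rose by 2.37 (SE 0.23) in csl4-ph and by 2.17 (SE 0.23) in enp1-1.

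The large-subunit guides snR39 and snR39B, which are 65.0% identical, lie close together, the former inside an intron of RPL7A, a ribosomal protein gene. snR39 is 74.2% identical to snR59, listed at 0 in all tag libraries, so the split of tags between these 2 is uncertain. snR39 had 3 counts over the control libraries and 71.1, 21.1 and 21.5 CPM in csl4-ph, a ratio of 63.7 with a 95% exact interval of 21.5 to 311. snR39B had 1 control count and 30.4, 36.3 and 27.1 CPM in csl4-ph, where it was called (adjusted p = 7.62e-07). The ratio of snR39B to control was 168 with a 95% exact interval of 29.9 to 6673. Both snR39B and snR13 passed the low-count filter only through csl4-ph libraries, so their rises in csl4-ph were close to fixed by it. In enp1-1 the ratios were 13.03 (4.22 to 65.2) for snR39 and 21.1 (3.48 to 861) for snR39B, and the snR39 call was lost without control replicate 1 or 3 or enp1-1 replicate 1 or 2. Tags on the host RPL7A were not called, at −0.51 (SE 0.22) in csl4-ph and 0.15 (SE 0.22) in enp1-1. snR13 had 2 control counts and a ratio of 31.7 (8.50 to 267) in csl4-ph, and in enp1-1 it had 2 counts against 2. snR190 was at 7.27, 6.75 and 9.70 CPM in control, 7.22, 7.60 and 4.45 CPM in csl4-ph and 46.1, 38.9 and 37.8 CPM in enp1-1. It overlapped the control in csl4-ph (log2 change −0.31, SE 0.35, adjusted p = 0.482) and rose by 2.36 in enp1-1 (SE 0.32). snR87, a small-subunit guide, fell in csl4-ph from 39.7, 35.6 and 31.1 to 9.28, 13.1 and 13.8 CPM (log2 change −1.54, SE 0.28). With the Pab1GFP vector the strains overlapped in snR87, at 15.8, 21.4 and 16.6 CPM in control and 19.4, 12.5 and 7.25 in csl4-ph. snR70 fell by 1.41 (SE 0.51), a call lost without csl4-ph replicate 3 and with ORF scaling. The locus sums of snR87 and snR70 were higher, at 1.07 and 1.98.

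In csl4-ph 11 of 20 members were called higher and 2 lower, beside 32.2% and 15.4% of 6369 features (47.5% in either direction). The members' median was 2.31 against 0.22. Members such as snR13, snR39B, snR48 and snR58 were too low in control and enp1-1 to pass the low-count filter there. They passed it through csl4-ph libraries, so their rises in csl4-ph were close to fixed by the filter, and they count in the 20 and in the median. In enp1-1 13 were called higher and 0 lower, beside 25.0% and 13.9% (38.9% in either direction), with a median of 2.23 against 0.20. snR4 was called in both strains at ratios of 5.02 (1.48 to 26.5) and 5.26 (1.57 to 27.6) over 3 control counts. The snR4 locus was not called, at 0.37 (SE 0.15) in each strain. The snR4 call was lost in csl4-ph without control replicate 2 or 3 or csl4-ph replicate 1 or 2, and in enp1-1 without control replicate 2 or 3 or any enp1-1 library. The differences between these 2 strains in 3′ tags were not tested.

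**Figure D5:**
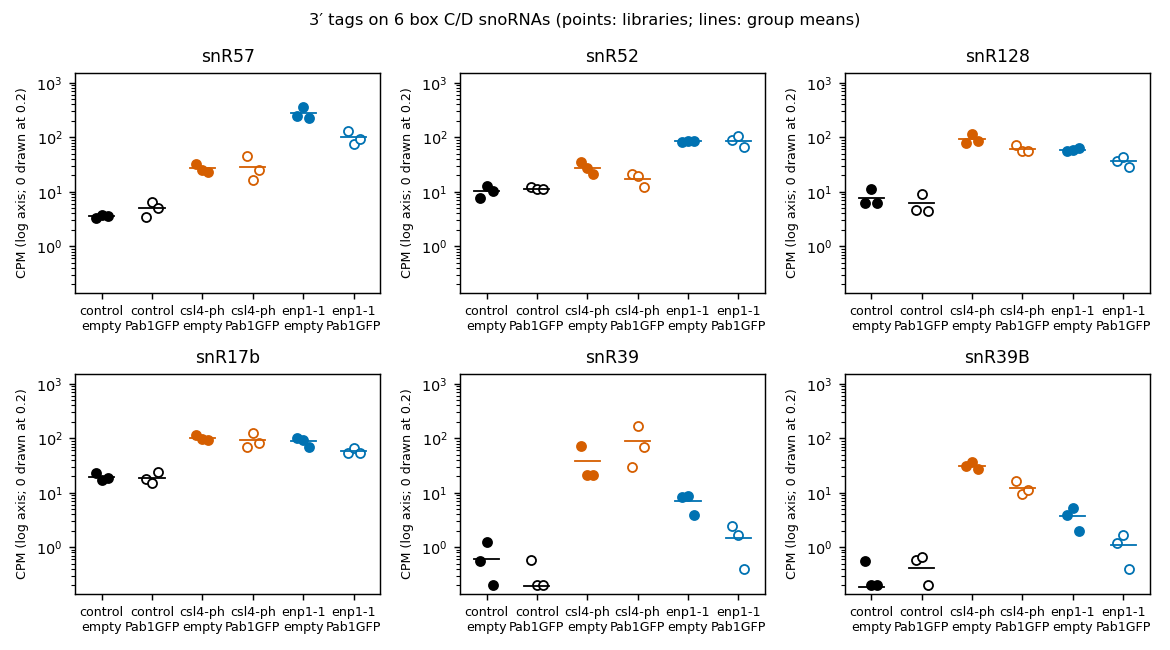
3′ tag levels of 6 members in CPM on a log axis, with 1 point per library and a line at each group mean; filled points carry the empty vector and open points the Pab1GFP vector, and 0 is drawn at 0.2. The enp1-1 empty-vector libraries lie highest for snR57, at 225 to 359 CPM, and the csl4-ph libraries lie highest for snR39 and snR39B.

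Few members were called between the Pab1GFP and empty vectors, at shares near those of all features. In enp1-1 snR57 fell from 246, 359 and 225 CPM with the empty vector to 130, 75.1 and 93.4 CPM with Pab1GFP, without overlap (log2 change −1.49, SE 0.28, adjusted p = 0.00563). It was the 1 member called of 20, lower, beside 1.71% of features called higher and 4.95% lower (6.66% in either direction), and with only these 2 groups in the fit it was at −1.37 and 0 members were called. U14 in enp1-1 was at 37.0, 42.9 and 28.6 CPM with Pab1GFP, below all 3 empty-vector libraries, but was not called (log2 change −0.70, SE 0.22, adjusted p = 0.0703). snR52 in enp1-1 differed by 0.04 (SE 0.21, adjusted p = 0.935). In the control strain edgeR called 0 of 20 members, beside 0.22% and 0.173% of features higher and lower (0.393% in either direction); 2 had an unadjusted p under 0.05, and DESeq2 called 1. In csl4-ph edgeR called 0 of 20, beside 0.236% and 0.173% (0.408% in either direction), and 4 had an unadjusted p under 0.05. The interaction of vector and strain was −1.97 for snR57 in enp1-1 against control (SE 0.63, adjusted p = 0.172), so the vector's effect on snR57 was not shown to differ between the strains.

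Genes of the proteins that bind and process the members were read from lists chosen with earlier results known. For these counts, the shares of all features called higher and lower were 35.4% and 41.1% in csl4-ph, 34.8% and 37.0% in enp1-1, 39.4% and 37.0% in srm1-ts, 30.0% and 38.8% in dis3-1 and 30.5% and 35.6% in rrp6 deletion. The 4 core proteins (NOP1, NOP56, NOP58 and SNU13) fell in ribo-depleted RNA of csl4-ph, enp1-1, srm1-ts and dis3-1, 4 of 4 in each, with median log2 changes of −1.12, −0.78, −1.57 and −0.62. In rrp6 deletion 3 of the 4 rose. NOP58 fell by 1.05 in csl4-ph (SE 0.02) and rose by 0.29 in rrp6 deletion (SE 0.03), and SNU13 fell by 1.83 in srm1-ts (SE 0.04). Of the 29 tested genes of U3-associated proteins, 1 rose and 21 fell in csl4-ph (median −0.62), and 23 rose and 2 fell in rrp6 deletion (median 0.42), before the shift that ORF scaling gives. PWP2, a subunit of that complex, fell by 1.12 in csl4-ph (SE 0.02), and UTP18 rose by 1.20 in rrp6 deletion (SE 0.03). Of the 7 genes of factors that assemble the particles, 2 rose and 5 fell in csl4-ph, and 2 rose and 3 fell in rrp6 deletion, the latter near the shares of all features. Of 18 exosome and cofactor genes, 4 rose and 11 fell in csl4-ph, and RRP43, an exosome ring subunit, fell by 1.83 (SE 0.04). Of 14 tested genes for snoRNA termination and end processing, 3 rose and 9 fell in csl4-ph; LHP1, the yeast La protein, fell by 1.53 (SE 0.03).

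Among the 6 host genes of intron-coded members, 5 fell in csl4-ph ribo-depleted RNA, beside 41.1% of all features. ASC1, a ribosomal protein gene, fell by 2.78 (SE 0.05), RPL7A by 1.71 (SE 0.02), TEF4 by 1.51 (SE 0.03), EFB1 by 1.31 (SE 0.02) and IMD4 by 1.20 (SE 0.02), while RPL7B rose by 0.50 (SE 0.05). In the same libraries snR18, which lies in the EFB1 intron, was at 5.13, 3.62 and 3.78 CPM against 0.684 and 0 in control, and was called higher (log2 change 3.53, SE 1.36, adjusted p = 0.0395). In srm1-ts snR18 was at 6.09 and 4.24 CPM and called higher (log2 change 3.83, SE 1.42) beside a fall of 2.90 in EFB1 (SE 0.03).

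The box H/ACA snoRNAs, which guide pseudouridylation, gave the following counts in the same fits. In oligo d(T) RNA of csl4-ph, 24 of 24 tested were called higher and 0 lower, where 38.2% and 39.6% of all features were, beside 9 higher and 2 lower of the 15 box C/D members. In ribo-depleted RNA of rrp6 deletion 11 of 29 were called higher and 6 lower, where 30.5% and 35.6% of all features were, so that the higher share lay near the background. Their median log2 change was 0.21, beside 15 and 1 of 22 box C/D members with a median of 1.25. In ribo-depleted enp1-1 RNA 2 of 29 were called higher and 22 lower, where 34.8% and 37.0% of all features were, with a median of −1.20 beside −0.54 for box C/D. The differences between the classes were not tested.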

How the data were processed

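RNA was measured in 41 libraries of budding yeast: oligo d(T)-selected RNA, ribo-depleted RNA and 3′ tags. The deposited values are estimated counts per feature, one table for each kind of RNA; the authors made them with Salmon 0.12.0 after trimming with Trimmomatic (0.38 and 0.39), per the submitters' processing notes, which also name the sacCer3 build, DESeq, DESeq2 1.26.0 and bedtools. How reads on overlapping or paralogous features were divided is not given in the sources used here. Estimated counts can split reads between overlapping features, so a member's count may depend on that of its NUT, which was not tested.

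Estimated counts were rounded and tested with edgeR 4.0.16 in R 4.3.3: TMM scaling, filterByExpr by group, quasi-likelihood F-tests with all groups of a table in 1 fit, and Benjamini-Hochberg adjustment over all features of the table. A joint fit of the oligo d(T) and ribo-depleted tables gave the contrast between selections. The edgeR steps were tested on simulated data. Where a group had 0 counts, folds are bounds against 3 counts per library; ratios over 1 to 3 counts carry 95% exact intervals. Members, lists and tests were chosen with earlier results of these data known. Named members were up to 3 called members with the largest rise and up to 3 with the largest fall at a mean of 10 CPM or more, and always snR17a, snR17b, snR128, snR190, snR4, snR45, snR13 and snR52; snR18, snR47, snR57, snR58, snR66, snR68 and other members with low counts outside this rule were named after their values were seen. The listed genes named were those called with small adjusted p. Alternatives were median-ratio and ORF scaling, no filter, the compared groups alone, DESeq2 1.42.0, each library left out, a replicate block and, chosen after seeing the data, locus sums. Depth ranges are given above. Samples with the same replicate number did not deviate together, with correlations of −0.338 to 0.195 between groups, so the numbers were not used as pairs.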

Additional observations from a re-analysis of the deposited data

How the results depend on the processing

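Of 105 values of named members, 103 kept their direction and call with DESeq2 and 93 with ORF scaling, and with 1 library left out 59 of 597 values lost their call and 0 reversed. ORF scaling gave 13 calls in csl4-ph (8 higher, 5 lower) and 7 in dis3-1 (5 higher, 2 lower) in ribo-depleted RNA, and turned snR4 in enp1-1 to 0.078 and snR17b in dis3-1 to 0.14. Calls with 1 library left out ranged from 5 to 9 in dis3-1, from 9 to 11 in rrp6 deletion and from 7 to 10 between these strains. For Pab1GFP in control, 1 member was called with the compared groups alone and 1 with DESeq2. For Pab1GFP in enp1-1, 0 were called with the compared groups alone and 2 with DESeq2.

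With the replicate number as a block, 2 members were called for Pab1GFP in enp1-1, and the counts in the other comparisons stayed within 1.5 times; those of csl4-ph, enp1-1, dis3-1 and rrp6 deletion in ribo-depleted RNA were 11, 13, 10 and 14. Crossing the 2 numbers of dis3-1, chosen after seeing the data, gave 10 calls against control and 10 against rrp6 deletion.

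Locus sums changed most. A locus that holds several members was counted once for each of its tested members. Calls numbered 15 in enp1-1 oligo d(T) RNA, 21, 19 and 20 in csl4-ph, enp1-1 and dis3-1 ribo-depleted RNA, 9 for Pab1GFP in enp1-1, and 17, 19 and 14 for the difference between selections in csl4-ph, enp1-1 and srm1-ts. The locus of snR190 stood at 3.72 in csl4-ph oligo d(T) RNA, 1.98 between csl4-ph and enp1-1, 0.48 in csl4-ph, 0.32 in dis3-1 and 1.13 in rrp6 deletion ribo-depleted RNA, and 3.23 for the csl4-ph selections, where snR190 itself was lower. The snR45 locus stood at 2.84 in srm1-ts oligo d(T) RNA, 1.43 and 1.18 in enp1-1 and srm1-ts ribo-depleted RNA and 1.61 for the srm1-ts selections. U14's locus stood at −0.54 and −0.70 in enp1-1 and srm1-ts ribo-depleted RNA and at 0.52 for the srm1-ts selections. That of snR4 stood at 0.66 in enp1-1 and 0.079 for the srm1-ts selections. In dis3-1 the loci of snR70 and snR13 stood at 0.20 and 0.59. In csl4-ph the snR87 and snR70 loci stood at 1.07 and 1.98 in 3′ tags, and snR70 at 1.33 for the selections. The cause of these changes was not tested. Libraries of 3′ tags held 1458382 to 3027707 counts, many of them on TAR1. There 3 counts stand for 1.01 to 1.94 CPM, which limits how precisely ratios over groups at that level are known.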

Other observations

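The small-subunit and large-subunit guide snR51 was at 169, 152 and 121 CPM in 3′ tags of the control with the empty vector and at 188, 180 and 759 CPM in enp1-1, so that 1 of 3 enp1-1 libraries stood far above the others. snR48 and snR58, both large-subunit guides, had 2 counts each over the control tag libraries. In csl4-ph their ratios were 28.2 (95% exact interval 7.51 to 237) and 26.6 (7.07 to 224). Both passed the low-count filter only through csl4-ph libraries, so these rises were close to fixed by it. In enp1-1 their ratios were 3.38 (0.700 to 32.2) and 4.89 (1.11 to 44.6), neither of them called. snR60, a large-subunit guide, had 15 counts in control and 1 in csl4-ph ribo-depleted RNA, a ratio of 0.024 with a 95% exact interval of 0.000569 to 0.156, while its locus with the overlapping noncoding features rose by 2.38 (SE 0.06).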
